A study of Mus musculus with 4 samples.

Results

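The genes described here are the TRAF adaptors Traf1 to Traf6, the inhibitor of apoptosis (IAP) genes Birc2, Birc3 and Xiap, and the deubiquitinase gene Otud7b. They were chosen by gene symbol, and all 10 were found among the 24015 symbols counted in each of 4 RNA-seq libraries made from hematopoietic stem and progenitor cells (HSPC) sorted from mice. The 2 caNIK libraries came from mice that carry a NIK kinase made resistant to TRAF3 behind a loxP-flanked stop at the Rosa locus, with the stop removed by Vav-iCre, which is active in blood cells. The 2 control libraries are labelled only as control, and the sources used here do not give whether those mice carried the Cre or the unrecombined allele. They also leave out strain, age, sort markers and the number of animals. The comparison asks how transcripts of the machinery that degrades NIK stood in cells that make a NIK beyond the reach of TRAF3.

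In resting cells NIK is made and destroyed continuously. TRAF3 holds NIK, TRAF2 brings in the cIAP ubiquitin ligases encoded by Birc2 (cIAP1) and Birc3 (cIAP2), and these ligases mark NIK for the proteasome. When a receptor such as CD40 or BAFF receptor is engaged, the same ligases turn on TRAF3 instead, NIK builds up, and it drives processing of p100 (Nfkb2) to p52, the partner of RelB. OTUD7B removes ubiquitin from TRAF3 and so limits this arm, as shown in mouse B cells. Degradation of TRAF3 and NIK is a protein event. Only transcripts were measured here, and in sorted bulk samples a change in the share of cells expressing a gene and a change in its RNA per cell cannot be told apart.

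Library totals lay between 18574452 and 23162766 counts. Map3k14, the NIK gene, had 3305 and 3989 counts in caNIK libraries and 582 and 588 in control libraries, which sum reads of native and inserted copies. Kit, the stem cell factor receptor that marks HSPC, was at 558 and 506 CPM (counts over library size, scaled by trimmed means, TMM) in caNIK libraries and 610 and 613 CPM in control libraries. Markers of mature lineages were present in both groups, and for several lineages their summed levels differed. The counts of markers called below stand against 13.8% of all tested genes higher in caNIK and 8.21% lower (edgeR adjusted p under 0.05). For the 7 neutrophil markers the sums were 240 and 345 CPM in caNIK libraries and 31.4 and 44.6 CPM in control libraries, with 6 of 7 tested members higher. For the 7 mast cell and basophil markers they were 2059 and 976 CPM in caNIK libraries and 57.1 and 111 CPM in control libraries (6 of 7 higher), and for the 7 erythroid markers 1400 and 2201 CPM in caNIK libraries and 313 and 628 CPM in control libraries (4 of 7 higher). For the 7 dendritic cell markers they were 88.3 and 64.7 CPM in caNIK libraries and 20.3 and 20.2 CPM in control libraries, with 3 of 6 tested members higher (Itgax, Zbtb46 and Xcr1). The 7 macrophage and monocyte markers summed to 87.7 and 120 CPM in caNIK libraries and 45.9 and 85.6 CPM in control libraries. Of 6 tested, 0 passed. The 7 megakaryocyte markers summed to 231 and 207 CPM in caNIK libraries and 79.1 and 159 CPM in control libraries. Of 6 tested, 2 were higher and 1, Gp9, lower. T cell and B cell sums, given with Traf1, overlapped between the groups. The part of these cell types in the changes below was not tested.

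To show the promoters concerned, the 100 bases that precede the annotated start were taken from RefSeq promoters (build GRCm38.p6; the counts were made on mm9) for the most central adaptor, for the members with the largest rises, and for Nfkb2, a classical NF-kB target, as a comparison. Each is written 5′ to 3′ on the gene's own strand. Capitals mark matches on either strand to the 10-letter kB consensus or to a related form with GGGAA and CC separated by 3 bases of any kind, run together where they overlap or touch.
Traf3, chr12:111166270-111166369, plus strand: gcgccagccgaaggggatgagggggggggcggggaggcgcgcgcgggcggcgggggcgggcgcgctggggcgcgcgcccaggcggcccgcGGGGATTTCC
Traf1, chr2:34961773-34961872, minus strand: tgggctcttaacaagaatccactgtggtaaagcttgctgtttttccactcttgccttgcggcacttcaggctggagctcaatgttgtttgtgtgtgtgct
Birc3, chr9:7873171-7873270, minus strand: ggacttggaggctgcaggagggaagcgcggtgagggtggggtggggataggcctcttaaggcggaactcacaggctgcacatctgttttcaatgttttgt
Birc2, chr9:7837058-7837157, minus strand: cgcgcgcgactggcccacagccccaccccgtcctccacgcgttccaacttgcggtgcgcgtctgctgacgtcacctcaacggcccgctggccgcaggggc
Nfkb2, chr19:46304637-46304736, plus strand: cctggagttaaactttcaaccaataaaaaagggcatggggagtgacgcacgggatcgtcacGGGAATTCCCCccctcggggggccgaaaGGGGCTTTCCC

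The table held 12 promoter windows for 9 of the members (all but Otud7b), each reaching from 250 bases before to 50 bases after the start. The kB consensus was found in windows of 2 members. In Traf3 it filled bases -10 to -1, the last before the start, and in Xiap it lay at bases 23 to 32 after a start. The form with GGGAA and CC was found in windows of 2 others, Traf2 (bases 33 to 42) and Traf5 (bases -206 to -197). Counted by window, 2 of the 12 held the kB consensus and 2 held the related form. Among all 32851 mouse promoter windows, 8.46% held the kB consensus and 5.78% held the related form. The windows of Birc2, Birc3 and Traf1, the members with the largest rises, held neither, which says nothing of sites elsewhere.

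Over the whole set, 7 of 10 members were higher in caNIK HSPC and 0 were lower. All 10 passed the filter on low counts and were tested. In the same fit, 22% of the 14191 tested genes passed (edgeR quasi-likelihood test, adjusted p under 0.05), 13.8% as higher and 8.21% as lower. The CPM of the groups did not overlap for 9 of the members, 8 of them higher in caNIK, against 64.9% and 33.3% of all tested genes. The median log2 fold change of the members was 1.08, against 0.0038 over all tested genes. Whether the libraries were made from different animals, and how many went into each, is not stated in the labels. Each library held both Xist and Y-linked transcripts. Every p-value rests on the spread between these samples alone. The control libraries differed in Xist and in Y-linked transcripts, whose values stand beside Xiap, so their spread is not only that of repeat libraries of 1 RNA. Between replicates, the chi-square of counts per gene was 42.4 for the caNIK pair and 23.5 for the control pair. How much of the spread of either pair is technical was not tested.

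**Figure D1:**
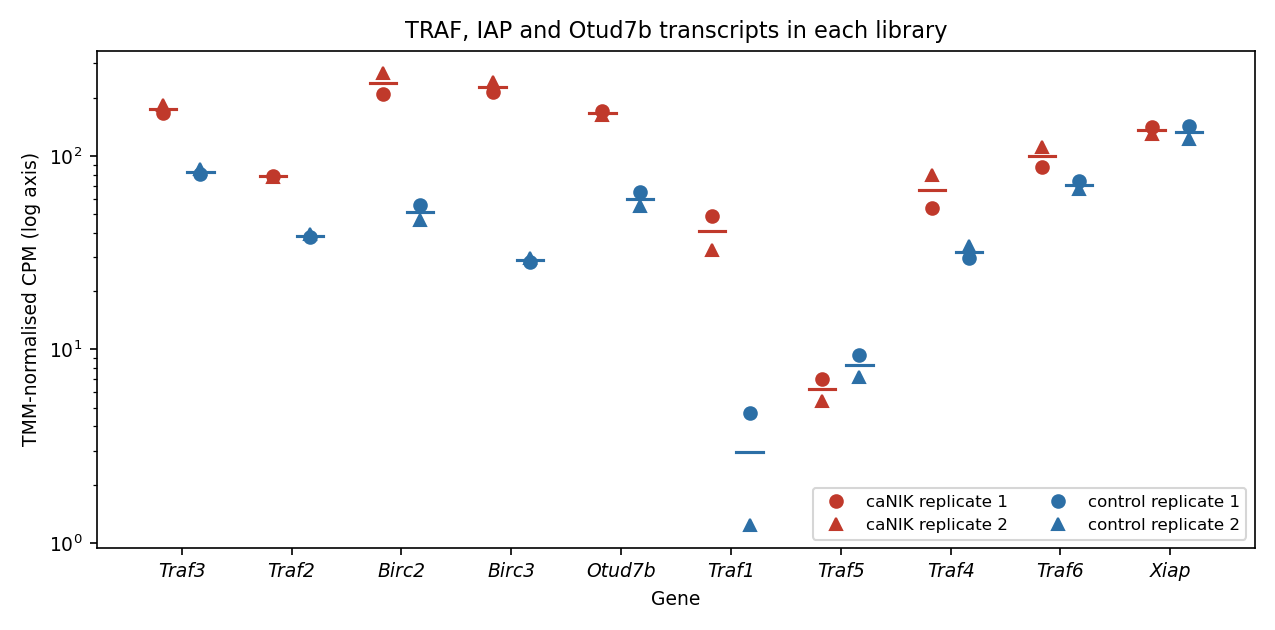
TMM-normalised CPM (vertical log axis) of each member in the 4 libraries, caNIK in red and control in blue; circles are replicate 1, triangles replicate 2 and bars the mean of 2 libraries. Birc3 stands at 213 and 241 CPM in caNIK and 28.3 and 29.7 CPM in control, while the Xiap points of both groups lie between 122 and 143 CPM.

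The adaptor that holds NIK was itself higher. Traf3 stood at 167 and 183 CPM in caNIK libraries and at 80.2 and 85.1 CPM in control libraries. Replicates lay close together and the groups did not overlap. The means were 175 ± 11.7 CPM in caNIK and 82.7 ± 3.46 CPM in control (SD, n = 2 each), a fold of 2.12 with a 95% interval of 1.66 to 2.71 (edgeR adjusted p = 0.0037). Traf2, which links TRAF3 to the cIAPs, was at 78.6 and 78.1 CPM in caNIK libraries and at 37.9 and 39.4 CPM in control libraries. Its replicates were close in both groups and its fold was 2.03 (1.58 to 2.59; edgeR adjusted p = 0.0048).

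Traf3 and Traf2 kept nearly the same proportion to each other. The ratio of Traf3 counts to Traf2 counts, which does not depend on library scaling, was 2.12 and 2.35 in caNIK libraries and 2.12 and 2.16 in control libraries. The groups overlapped, and the log2 difference was 0.06 (exact permutation test, two-sided, p = 0.667; 2 against 2 libraries cannot give less than 0.333). Of 6 such ratios examined, this was the only one whose groups were not fully apart, and each of the others gave an exact permutation p of 0.333 (0.4 adjusted over the 6).

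The cIAP ligases rose more than either adaptor by fitted value. Birc3, cIAP2, was at 213 and 241 CPM in caNIK libraries and at 28.3 and 29.7 CPM in control libraries. Birc2, cIAP1, was at 209 and 267 CPM in caNIK libraries and at 55.9 and 46.5 CPM in control libraries. In both genes the lower caNIK library stood far above the higher control library. The folds were 7.83 (6.0 to 10.2; edgeR adjusted p = 0.00018) for Birc3 and 4.65 (3.39 to 6.39; edgeR adjusted p = 0.00071) for Birc2. In mouse, RefSeq lists each of these genes among the synonyms of the other, and the sources used here do not say how reads matching both copies were counted, so the split between them is uncertain.

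The proportion of Birc3 to Birc2 counts was compared next. There were 1.02 and 0.904 Birc3 counts for each Birc2 count in caNIK libraries, and 0.506 and 0.638 in control libraries. The groups did not overlap, and the ratio was 1.69-fold higher in caNIK (exact permutation p = 0.333, the smallest that 2 against 2 libraries allow).

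Birc2 and Birc3 are direct neighbours on chromosome 9, and the genes on both flanks also passed as higher. Tmem123, a transmembrane protein gene next to Birc2, was at 565 and 742 CPM in caNIK libraries and at 198 and 187 CPM in control libraries (log2 fold change 1.77 ± 0.18, SE; edgeR adjusted p = 0.0011). Yap1, the Hippo pathway co-activator gene next to Birc3, was at 8.81 and 4.39 CPM in caNIK libraries and 0.726 and 0.724 CPM in control libraries (3.17 ± 0.57; edgeR adjusted p = 0.010). Of the 17 tested genes that flank any of the members, members left out, 6 passed, 4 as higher and 2 as lower, against 22% of all tested genes. The other 4 were Edf1 beside Traf2 (log2 fold change 0.78; edgeR adjusted p = 0.0261), Prr5l (2.72; 0.00461) and Rag1 (-3.06; 0.012) on either side of Traf6, and Phf19 beside Traf1 (-0.87; 0.0222). Around Traf3, neither neighbour passed: Rcor1, a corepressor gene, had a log2 fold change of -0.27 ± 0.20 (edgeR adjusted p = 0.395) and Amn one of -0.17 ± 0.69 (edgeR adjusted p = 0.885).

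Otud7b, the deubiquitinase that spares TRAF3, was also higher. It was at 170 and 163 CPM in caNIK libraries and at 64.8 and 54.8 CPM in control libraries. The caNIK libraries differed little and the groups were well apart, with a fold of 2.78 (2.14 to 3.62; edgeR adjusted p = 0.0015). Its paralogue Otud7a was not tested, as it had 4 counts in caNIK replicate 2 and 0 in the other libraries.

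**Figure D2:**
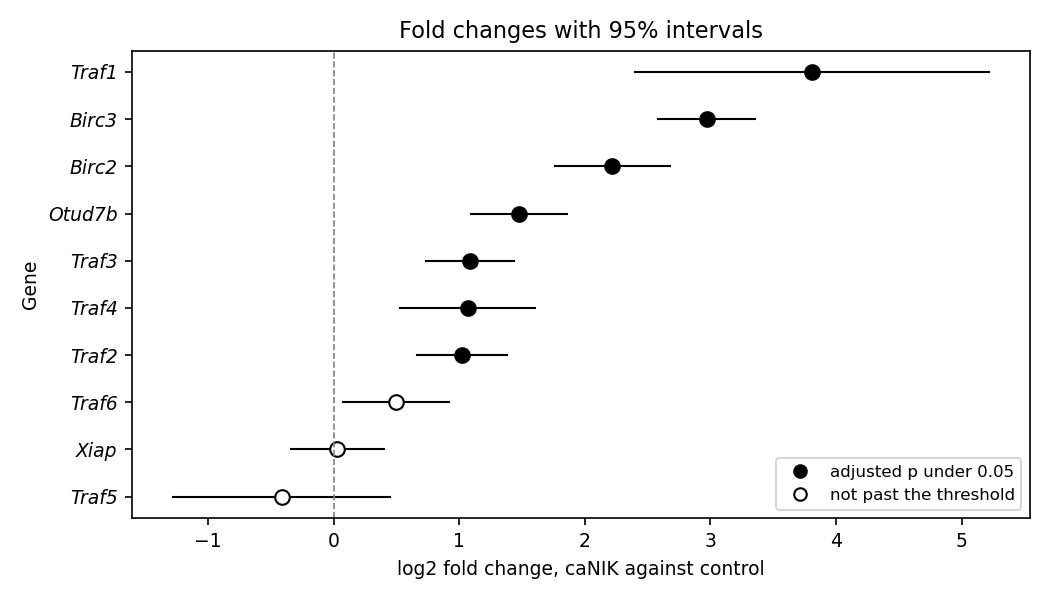
Log2 fold change of each member, caNIK against control (horizontal axis), with 95% intervals from the edgeR fit; filled points passed an adjusted p of 0.05 and open points did not. The 7 filled points run from Traf2 at 1.02 to Traf1 at 3.81, and the intervals of Traf5 and Xiap span 0.

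Traf1 had the largest fold of the set and the least certain one. TRAF1 lacks the RING finger of its relatives, pairs with TRAF2 and the cIAPs, and is known as an NF-kB target. It was at 49.0 and 32.8 CPM in caNIK libraries and at 4.67 and 1.24 CPM in control libraries. The control libraries, with 90 and 29 counts, differed 3.78-fold from each other, yet both lay well below the caNIK libraries. The fold was 14.0 with an interval of 5.28 to 37.2 (edgeR adjusted p = 0.0059). Without control replicate 1 it was 32.5, and without control replicate 2 it was 8.75, both past the threshold.

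Within each group, the library with more Traf1 also had more transcripts of T cell markers. The sum over the 6 T cell markers found, such as Cd3e, Lck and Cd4, was 167 and 64.99 CPM in caNIK libraries and 114 and 56.2 CPM in control libraries. Cd4, the largest part of it in caNIK libraries, was at 74.5 and 28.5 CPM there and at 20.7 and 16.2 CPM in control libraries. Its groups did not overlap (edgeR adjusted p = 0.0531), whereas those of the other T cell markers did. The sum over 7 B cell markers was 93.1 and 52.6 CPM in caNIK libraries and 68.0 and 49.5 CPM in control libraries. Between the groups, 0 of the 6 T cell markers passed the threshold in either direction, and among B cell markers Cd22 was higher and Pax5 lower. None of these markers was at 0 in every library. Their part in the Traf1 difference was not tested.

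Traf5, which overlaps with Traf2 in function and is best known from lymphocyte co-stimulation, had between 112 and 181 counts in each library. It was at 7.03 and 5.40 CPM in caNIK libraries and at 9.39 and 7.20 CPM in control libraries. The groups were just apart, yet the fold of 0.75 had an interval of 0.412 to 1.37 (edgeR adjusted p = 0.465). For each Traf2 count there were 0.0895 and 0.0692 Traf5 counts in caNIK libraries and 0.248 and 0.183 in control libraries, a 2.71-fold lower ratio in caNIK with no overlap (exact permutation p = 0.333, the smallest possible here). For Traf1 the ratio to Traf2 was 0.624 and 0.420 in caNIK libraries and 0.123 and 0.0314 in control libraries.

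Among the TRAFs outside the NIK complex, Traf4 passed and Traf6 did not. Traf4, an atypical member of the family known from embryonic development and epithelial tumours, was at 54.0 and 79.5 CPM in caNIK libraries and at 29.6 and 34.1 CPM in control libraries. All caNIK values were above all control values, with a fold of 2.09 (1.44 to 3.04; edgeR adjusted p = 0.018). Traf6, the ligase of interleukin-1, Toll-like and RANK receptor signalling, was at 87.6 and 112 CPM in caNIK libraries and at 73.9 and 67.4 CPM in control libraries. The groups did not overlap, and the fold was 1.41 (1.05 to 1.89; edgeR adjusted p = 0.0925). Without caNIK replicate 1 the log2 fold change of Traf6 was 0.67 and passed (edgeR adjusted p = 0.0329). Without caNIK replicate 2 that of Traf4 was 0.74 (edgeR adjusted p = 0.049).

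Xiap, the IAP that blocks caspases directly and is not part of the NIK complex, was at 141 and 129 CPM in caNIK libraries and at 143 and 122 CPM in control libraries. The groups overlapped fully, and the fold of 1.02 had an interval of 0.789 to 1.32 (edgeR adjusted p = 0.918). Xiap is X-linked. Xist, which is transcribed from the inactive X of female cells, was at 1190 and 1161 CPM in caNIK libraries and at 1971 and 903 CPM in control libraries. In each group the library with more Xist also had more Xiap, though the Xist values of the caNIK libraries were close. A link between Xist and Xiap was not tested. The Y-linked gene Ddx3y was at 64.0 and 42.4 CPM in caNIK libraries and at 27.3 and 47.8 CPM in control libraries, and Uty was at 21.2 and 13.2 CPM in caNIK libraries and at 5.34 and 17.7 CPM in control libraries. All 4 libraries thus held both Xist and Y-linked transcripts, and the control libraries differed in opposite directions in Xist and in these Y-linked genes. The other IAPs were also set against Xiap, and because Xiap itself differed little, these ratios restate their folds rather than add to them. For each Xiap count there were 1.48 and 2.07 Birc2 counts in caNIK libraries and 0.392 and 0.380 in control libraries, a 4.53-fold higher ratio. For Birc3 the ratio to Xiap was 1.505 and 1.87 in caNIK libraries and 0.198 and 0.242 in control libraries, 7.65-fold higher. The groups did not overlap in either ratio.

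Scaled by the annotated exon length of each gene (GENCODE M21, whose gene models may differ from those counted), the order of the members differed between the groups. In caNIK HSPC, Birc2 and Birc3 stood highest, at 52.0 ± 8.90 and 45.3 ± 4.01 CPM per kb (SD, n = 2), and their library values overlapped. Traf3 (23.8 ± 1.59), Traf4 (20.3 ± 5.47) and Otud7b (18.1 ± 0.535 CPM per kb) came next, with Traf4 overlapping both of the others. Traf2 (15.4 ± 0.0785) lay just above Xiap (14.3 ± 0.914) and Traf6 (12.6 ± 2.16 CPM per kb), and the last 2 of these overlapped. Traf1 (4.64 ± 1.30) and Traf5 (1.36 ± 0.253 CPM per kb) were lowest and apart from each other.

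In control HSPC, Xiap was highest at 14.0 ± 1.51 CPM per kb, above the others in both libraries. Traf3 (11.2 ± 0.470), Birc2 (11.2 ± 1.45), Traf4 (9.68 ± 0.969) and Traf6 (8.96 ± 0.584 CPM per kb) followed, each overlapping its neighbour in the order. Traf2 (7.57 ± 0.214), Otud7b (6.51 ± 0.766) and Birc3 (5.78 ± 0.196 CPM per kb) came below without overlap, then Traf5 (1.82 ± 0.339) and Traf1 (0.335 ± 0.275 CPM per kb). By rank, Birc3 was number 2 in caNIK and number 8 in control, and Xiap was number 7 in caNIK and number 1 in control.

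**Figure D3:**
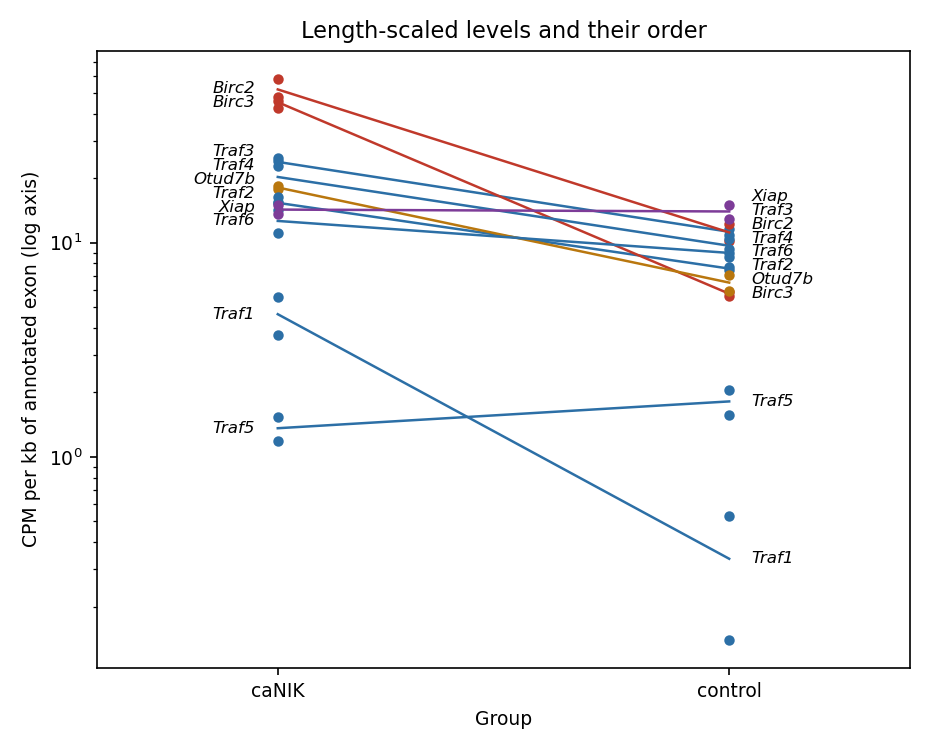
CPM per kb of annotated exon (vertical log axis) of each member in caNIK and control HSPC; points are libraries and lines join the group means, with cIAP genes in red, Xiap in purple, Otud7b in orange and TRAF genes in blue. Birc2 and Birc3 lie above all other members in caNIK, whereas Xiap lies highest in control.

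Birc3 and Traf3 were set beside the genes most like them over the 4 libraries, by distance of centred log2 CPM. The 3 genes nearest to Birc3 were Dlk1, a Notch-family ligand gene (distance 0.049), Whrn, a scaffold gene of hair cells (0.13), and Kalrn (0.13). For Traf3 they were Arhgap1 (0.022), Fdft1, the squalene synthase gene (0.081), and Tapbpl, a peptide-loading gene (0.11). With 4 libraries this likeness mostly records that the genes rose by a similar fold.

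Other genes of the pathway are given by role, and no test compared these groups with each other. Of 9 genes for NIK, the IKK kinases and the NF-kB subunits, 4 were higher and 0 lower, with a median log2 fold change of 0.32. Among all tested genes, 13.8% were higher and 8.21% lower. Nfkb2 and Relb had the smallest p, with 617 and 851 CPM in caNIK libraries and 22.7 and 21.7 CPM in control libraries for Nfkb2, and 152 and 174 CPM in caNIK libraries and 8.04 and 6.14 CPM in control libraries for Relb. The others were Map3k14 and Chuk, which encodes IKK alpha, the kinase that NIK activates (log2 fold change 0.71).

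Receptors that recruit TRAFs moved in both directions. Of 14 tested, 7 were higher and 2 lower, against 13.8% and 8.21% of all tested genes, with a median log2 fold change of 1.26. Tnfrsf11a, the RANK gene, was at 68.4 and 113 CPM in caNIK libraries and at 2.13 and 1.87 CPM in control libraries (5.50 on the log2 scale; edgeR adjusted p = 0.0002). Cd40, counted in neither control library, was at 17.4 and 11.04 CPM in caNIK libraries and so at least 200-fold higher, against a floor of 3 counts over the control group. The median was the same with Cd40 at that bound. Ltbr, the lymphotoxin beta receptor gene, fell to 13.3 and 13.7 CPM in caNIK libraries, against 41.6 and 37.3 CPM in control libraries. Cd27, a receptor of lymphoid-primed progenitors and lymphocytes, fell to 42.7 and 14.5 CPM in caNIK libraries, against 116 and 95.8 CPM in control libraries (log2 fold change -1.89; edgeR adjusted p = 0.0284). Its log2 fold change was -2.86 without caNIK replicate 1 and -1.33 without caNIK replicate 2. With all libraries, Cd27 did not pass a test against a fold of 1.5 (edgeR adjusted p = 0.0604).

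Of 27 tested cytosolic TRAF partners and adaptors of the TRAF6 arm, 3 were higher and 2 lower, near the 13.8% and 8.21% of all tested genes, with a median log2 fold change of -0.04. Tank, which binds TRAF proteins and TBK1, was at 122 and 141 CPM in caNIK libraries and at 32.6 and 34.0 CPM in control libraries (1.98; edgeR adjusted p = 0.00059). Trafd1, which restrains TRAF6-dependent signalling, rose by 1.13 (edgeR adjusted p = 0.0033), and the third was the kinase gene Ikbke. Tifab, an inhibitor of TRAF6 signalling, fell to 9.24 and 12.2 CPM in caNIK libraries, against 93.7 and 91.8 CPM in control libraries. Tbkbp1, an adaptor of TBK1, fell to 9.72 and 4.29 CPM in caNIK libraries, against 48.8 and 51.8 CPM in control libraries (log2 fold change -2.85, and -3.54 without caNIK replicate 1).

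In the main fit, ubiquitin-editing genes that act on these complexes were higher or did not pass. Of 20 tested, 6 were higher and 0 lower, against 13.8% and 8.21% of all tested genes, with a median log2 fold change of 0.40. Tnfaip3, the A20 editing enzyme, was at 122 and 105 CPM in caNIK libraries and at 20.1 and 13.5 CPM in control libraries (2.75; edgeR adjusted p = 0.0007), and its partner Tnip1 rose by 1.86 (edgeR adjusted p = 0.00071). The other 4 were the deubiquitinase genes Cyld, Otulin and Usp25, with log2 fold changes of 1.02, 0.98 and 0.84, and the ligase gene Peli1 (0.84). Among the other BIR-domain genes and IAP antagonists, 1 of 11 was higher, near the share of all tested genes (13.8%), and 0 were lower, with a median of 0.48. That gene was Xaf1, an interferon-inducible antagonist of XIAP, at 32.9 and 25.3 CPM in caNIK libraries and 10.01 and 8.82 CPM in control libraries (1.63; edgeR adjusted p = 0.0059).

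**Figure D4:**
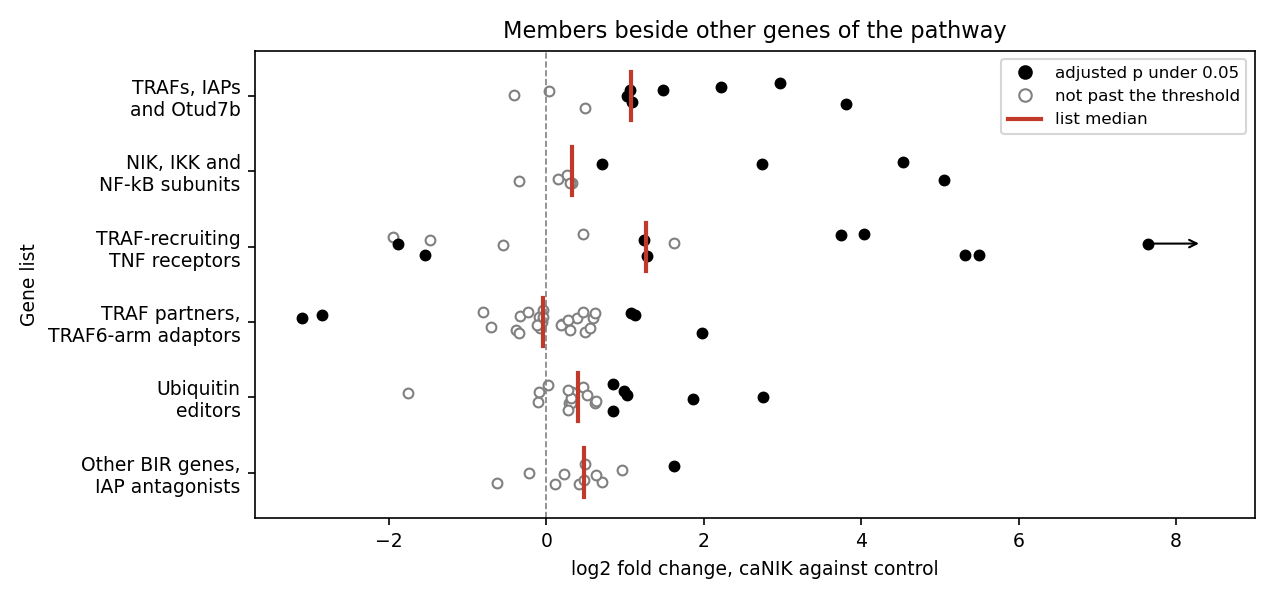
Log2 fold change, caNIK against control (horizontal axis), of the members and of 5 other groups of pathway genes; each point is a tested gene, filled where adjusted p is under 0.05, red bars are medians, and the arrow marks Cd40 at its lower bound. The members have a median of 1.08, whereas the TRAF partners and TRAF6-arm adaptors centre on -0.04.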

How the data were processed

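The authors deposited raw read counts per gene symbol, 1 table per library, per the file headers. Per the submitters' processing notes, the build was mm9 and the tools included TopHat2 2.1.0 and featureCounts 1.5.0, with DESeq2 1.10.1 and FastQC. The sources used here do not give the annotation, strand setting or handling of multi-mapping reads. Overlapping, antisense and near-identical genes therefore cannot be separated. Groups and replicate numbers came from sample titles.

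The analysis used edgeR 4.0.16 (R 4.3.3): filterByExpr (14191 genes kept), TMM scaling, and a quasi-likelihood fit with group as its only term. P-values were Benjamini-Hochberg adjusted over all tested genes, with 0.05 as the threshold. Intervals are 95% and use the SE implied by the F statistic. Alternatives were DESeq2 1.42.0, limma-voom (limma 3.58.1), other scalings and filters, a replicate block, a test against a fold of 1.5, and each library left out.

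The members and lists were chosen with earlier results of these data known. The genes named were all members, the 2 genes with the smallest p in each direction per list, the flanking genes of Birc2, Birc3 and Traf3, and the nearest genes in pattern. Chuk, Ikbke, Cyld, Otulin, Usp25, Peli1, Otud1, the flanking genes of other members, the sex-linked genes and the marker genes were named after their values were seen. Protein sequences were not used here.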

Additional observations from a re-analysis of the deposited data

How the results depend on the processing

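Birc3, Birc2, Otud7b, Traf1, Traf2 and Traf3 passed under all 12 alternatives, and Traf5 and Xiap under 0. With each library left out in turn, the members higher numbered 7 to 8 and the members lower 0. Traf4 (log2 fold change 1.07) did not pass a test against a fold of 1.5 (adjusted p = 0.0808). With a library left out, Traf6 ranged from 0.29 to 0.67 (adjusted p = 0.0329 to 0.363) and Xiap from -0.076 to 0.12 (-0.033 without caNIK replicate 1), and Xiap was -0.038 with library totals. Lower genes over all genes numbered 1766 with the replicate block and 458 against a fold of 1.5, compared with 1165. Lower genes of the pathway lists numbered 4, but 7 with DESeq2, 8 with the lightest filter, 9 with the replicate block and 4 to 7 with a library left out. The cause of these differences was not tested. The block moved no member across the threshold. Whether replicate numbers pair animals is not given; replicate 1 deviations correlated across genes between groups (r = 0.25).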
